A study of Arabidopsis thaliana with 3 samples.

Results

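The serine carboxypeptidase-like (SCPL) family of Arabidopsis thaliana was measured in germinating pollen and in seedlings. Its members were found by symbol, as every gene whose symbol in the array annotation or the reference gene table starts with SCPL or is SNG1, SNG2, SCT or BRS1, provided that a probe set was listed for that gene alone. This gave 29 genes, each with 1 probe set, out of 13356 genes with a probe set of their own. The reference table holds 51 genes of the family. Of the other 22, 3 (scpl36, scpl37 and scpl39) lie on probe sets shared with another gene. The remaining 19 are on no probe set listed in the annotation, and none of the 22 was analysed as a member. SNG1, SCPL19 (also called SNG2) and BRS1 are among those 19.

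Serine carboxypeptidases remove amino acids from the C-terminal end of proteins and peptides, using a serine in the active site, and plant members enter the secretory pathway to the vacuole or the cell surface. Some plant members have become acyltransferases, which move an acyl group from a glucose ester to another molecule instead of cutting a peptide bond. In Arabidopsis the products of SNG1 (SCPL8) and SNG2 (SCPL19) make sinapoylmalate in leaves and sinapoylcholine in seeds. BRS1 (SCPL24) is a carboxypeptidase found because its overexpression suppresses a weak mutant of the brassinosteroid receptor BRI1.

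Total RNA of the accession Col-0 was hybridised to Affymetrix ATH1 arrays, on which the brightness of a group of short oligonucleotides, a probe set, is combined into 1 signal. Germinating pollen with pollen tubes was on 2 arrays, from open flowers and held for 6 h at 25°C on medium with 13.5% sucrose, with about 80% germination. The third array held whole seedlings, roots included, with 1 or 2 rosette leaves, grown on Murashige-Skoog agar with sucrose. No mutant, transgene or agent was part of the design. The labels do not say whether separate plants or cultures lie behind the pollen arrays, so p-values cover only the spread of this pair, possibly a technical one. The seedling array has no replicate, and the test takes its spread to be that of pollen.

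Signals are in arbitrary units, and a probe set was tested if either the seedling signal or both pollen signals lay above a floor of 42.3, the pooled median. Of 27 control probe sets against bacterial transcripts, taken as having no target here, the brightest reached 47.1 and 65.7 on the pollen arrays and 14.3 in seedlings. Their median was 4.26 and 2.69 times as high on pollen arrays 1 and 2 as on the seedling array, and the hybridisation spikes were 5.25 and 4.69 times as bright. The tissue labels were checked with marker genes. ANX1 and ANX2, receptor kinases of the pollen tube, had 4520 to 10573 in pollen and a summed signal of 3.08 in seedlings. The 5 leaf photosynthesis markers summed to 166 and 191 in pollen and to 29087 in seedlings. The tapetum marker AMS, the only one of 8 with a probe set of its own, had 8.87 and 49.0 in pollen. The 4 measured markers of flower organs summed to 310 and 290 in pollen and to 195 in seedlings. NGA1 was lower in pollen (6.23 and 2.81 against 87.8). NGA2 (107 and 102 against 56.2), SPT (106 and 131 against 39.6) and RBE (91.0 and 54.8 against 11.3) had higher signals in pollen but did not pass. With seedling signals under the floor, SPT and RBE were tested only because both pollen signals lay above it. The 2 root markers summed to 234 and 157 against 45.6, and EXPA7 was higher in pollen (121 and 101 against 22.0, limma adjusted p = 0.042) while EXPA18 did not pass. In whole tissues, fewer cells of a type and less RNA per cell cannot be told apart.

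Of the 29 members, 12 lay above the floor on both arrays of germinating pollen. Over all probe sets 47.8% lay above it on pollen array 1 and 50.2% on pollen array 2. These are shares on 1 array each. The share above the floor on both pollen arrays is not given, so the 12 members have no matching share. The brightest members there were scpl38 and SCPL49. A probe set shared by 2 family genes, not counted among the members, was brighter still and is described at the end. With limma and Benjamini-Hochberg adjustment at 0.05 over all 14815 probe sets tested, 20 of the 29 members were tested, 2 were higher in pollen and 8 were lower. Over the whole array 53.8% of tested probe sets were called, 22.1% as higher and 31.7% as lower. Among the tested members 10% were higher and 40% lower. The number 20 counts members that passed a filter on low signals, not the family. On simulated data the same fit called more unchanged probe sets than the threshold of 0.05 allows. The calls on members and on the array may thus hold more false ones than that. The median log2 difference, pollen minus seedling, was -1.11 for the 20 tested members and -0.61 for all tested probe sets. Both turn sign when no filter is used, to 0.25 over all 29 members and 0.07 over all 22746 probe sets, so neither gives a direction for the family. By size alone, with the floor standing in for any signal under it, 2 members were at least 10-fold higher on both pollen arrays, against 4.24% of 22746 probe sets, and 0 were at least 10-fold lower, against 4.95%. The floor limits the second count, since a member needed a seedling signal of at least 10 times the floor to enter it. No limma test stands behind these counts by size.

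**Figure D1:**
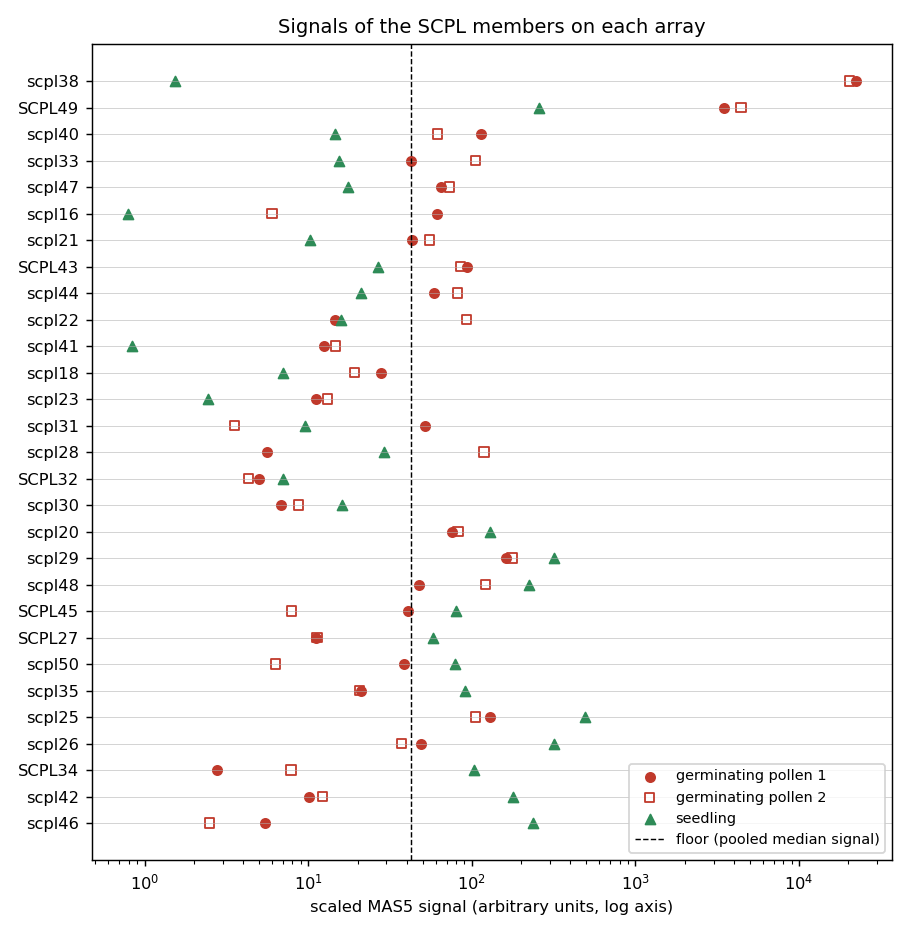
Signal of each of the 29 members (rows, ordered by log2 difference) on pollen array 1 (filled circles), pollen array 2 (open squares) and the seedling array (triangles), in arbitrary units on a log axis, with the floor of 42.3 as a dashed line. On the pollen arrays scpl38 and SCPL49 lie far to the right of the seedling triangle, while the lower rows have seedling signals of 57.6 to 492 above the pollen signals.

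The member with the largest difference was scpl38 (AT2G05850). Its signal was 22307 on pollen array 1 and 20420 on pollen array 2, with a mean of 21363 ± 1334 (SD, n = 2). In seedlings its signal was 1.54. Both pollen signals thus lay far above the floor and the seedling signal far under it, and the pollen arrays differed by a factor of 1.09. Since the seedling signal is only known to be at or under the floor, the difference is given as at least 505-fold, the pollen mean over the floor (limma log2 difference 10.36, SE 0.10, adjusted p = 8.7e-06). The difference ranked 31 from the top among the 14815 tested probe sets. No enzymatic role is given here for the product of scpl38.

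SCPL49 (AT3G10410) was the other member called higher. The reference table also lists it as carboxypeptidase Y, the name of the vacuolar carboxypeptidase of baker's yeast, which works in protein breakdown there. Its signals were 3477 and 4420 in pollen, a mean of 3948 ± 667 (SD, n = 2), and 256 in seedlings. All 3 arrays were well above the floor, and both pollen arrays lay above the seedling array, by 13.6-fold and 17.3-fold. The ratio of means was 15.4-fold (limma log2 difference 3.86, SE 0.17, adjusted p = 0.00034). Scaled by the hybridisation spikes in place of the trimmed mean, the log2 difference of SCPL49 fell to 1.61 and it was no longer 10-fold higher, although still called (adjusted p = 0.0084). That of scpl38 was 9.48 there.

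**Figure D2:**
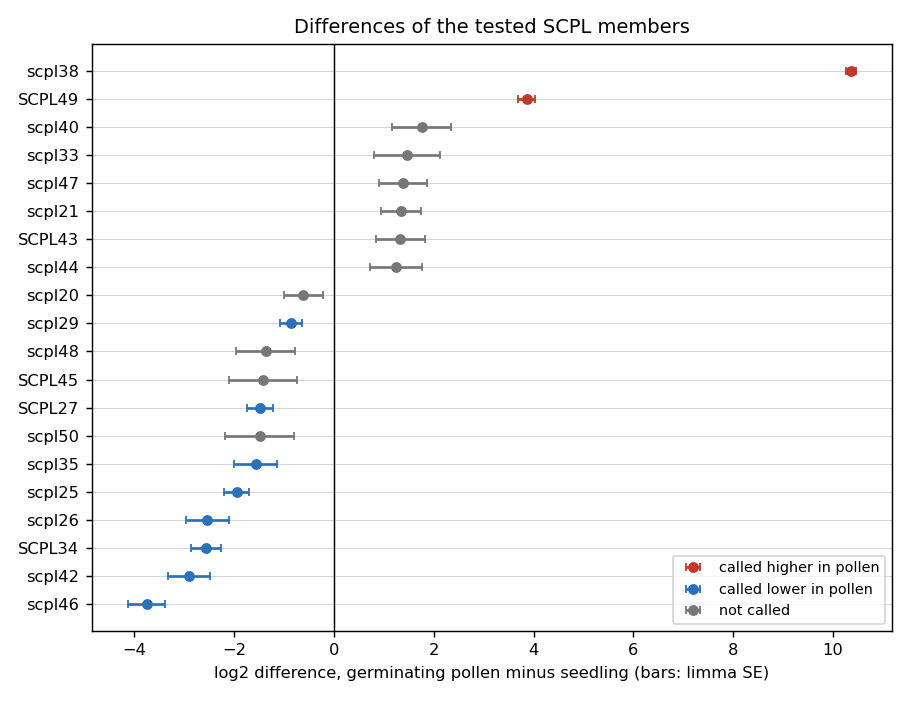
Log2 difference, germinating pollen minus seedling, of the 20 tested members, with limma's SE as bars, coloured by call. The difference of 10.36 for scpl38 and of 3.86 for SCPL49 lie apart from the other 18, which run from -3.75 to 1.76.

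On the side of lower signals in pollen, 8 members were called, and 5 of these were at or under the floor on both pollen arrays. The biggest difference was that of scpl46 (AT2G33530). Its pollen signals were 5.44 and 2.49 and its seedling signal was 236, so that it was at least 5.59-fold lower against the floor (limma log2 difference -3.75, SE 0.37, adjusted p = 0.0029). For scpl42 (AT5G42240) the pollen signals were 10.0 and 12.3 against 179 in seedlings, at least 4.24-fold lower (log2 difference -2.91, SE 0.43, limma adjusted p = 0.0076). SCPL34 (AT5G23210) had 2.75 and 7.85 in pollen and 102 in seedlings, at least 2.42-fold lower (log2 difference -2.56, limma adjusted p = 0.0044). In these 3 genes both pollen signals lay far under the seedling signal, by an amount known only as a bound.

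Those dim pollen signals lie in the range of the controls without a target, so the bounds hold against the floor only. The remaining 2 of the 5 had seedling signals closer to the floor. For scpl35 (AT5G08260) the signals were 21.1 and 20.5 in pollen and 90.6 in seedlings, at least 2.14-fold lower (limma adjusted p = 0.041). SCPL27 (AT3G07990) had 11.1 and 11.3 in pollen and 57.6 in seedlings, at least 1.36-fold lower (limma adjusted p = 0.014). Both calls were lost with an offset of 1 before log2 (adjusted p = 0.11 for scpl35 and 0.077 for SCPL27) and when no filter on low signals was used (0.15 and 0.14). That of scpl35 was also lost under quantile normalisation and 75th percentile scaling (0.082 and 0.085).

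The other 3 members called lower had at least 1 pollen signal above the floor. The seedling signal of scpl25 (AT3G02110) was 492. Its pollen signals of 129 and 106 were above the brightest control without a target on each array, and the ratio of means was 4.198-fold (log2 difference -1.95, SE 0.25, limma adjusted p = 0.0055). For scpl26 (AT2G35780) the signals were 49.1 and 37.0 in pollen, on either side of the floor, and 319 in seedlings, a ratio of 7.40-fold (log2 difference -2.54, SE 0.43, limma adjusted p = 0.011). The smallest called difference was that of scpl29 (AT4G30810), with 163 and 176 in pollen against 319 in seedlings, 1.89-fold lower (log2 difference -0.86, SE 0.22, limma adjusted p = 0.034). The call of scpl29 was lost under quantile normalisation, 75th percentile scaling, a fit without variance trend and no filter (adjusted p = 0.13, 0.30, 0.083 and 0.061). Calls of scpl25, scpl26, SCPL34, scpl42 and scpl46 were made under each alternative that could be tested.

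Of the 10 tested members that were not called, 4 had a seedling signal above the floor and a lower mean in pollen. For scpl20 (AT4G12910) the signals were 75.1 and 82.3 in pollen and 128 in seedlings (limma adjusted p = 0.25). In scpl48 (AT3G45010) the pollen arrays disagreed, with 47.6 and 121, and the seedling signal was 223 (limma adjusted p = 0.12). Both pollen signals were under the seedling signal in these 2 genes, without passing the test. SCPL45 (AT1G28110) had 40.5 and 7.93 in pollen against 80.0 (limma adjusted p = 0.15), and scpl50 (AT1G15000) had 38.2 and 6.29 against 79.0 (limma adjusted p = 0.14). For SCPL45 and scpl50 pollen array 1 lay just under the floor and pollen array 2 far under it.

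The other 6 members not called were above the floor on both pollen arrays and under it in seedlings. The signals of scpl40 (AT3G63470) were 113 and 62.0 in pollen and 14.6 in seedlings (limma adjusted p = 0.069), and those of scpl33 (AT3G17180) were 42.5 and 105 against 15.4 (limma adjusted p = 0.13). For scpl47 (AT5G22980) they were 65.1 and 73.1 against 17.4 (limma adjusted p = 0.077), and for scpl21 (AT3G25420) 42.8 and 55.1 against 10.2 (limma adjusted p = 0.052). In all 4 both pollen signals exceeded the seedling signal. The filter fixed this, since a member under the floor in seedlings was tested only with both pollen signals above it. The brightest control was exceeded on both pollen arrays by scpl47, on 1 by scpl40 and by scpl33, and on neither by scpl21. SCPL43 (AT2G12480) had 92.9 and 85.3 against 26.6 (limma adjusted p = 0.087), and scpl44 (AT1G43780) had 59.1 and 81.6 against 21.1 (limma adjusted p = 0.11).

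Against the floor, the mean pollen signals of these 6 genes were at least 1.16 times (scpl21) to at least 2.11 times (SCPL43) as high. The controls without a target and the hybridisation spikes were also brighter on the pollen arrays, and their part in the signals of the 6 genes was not tested. Under spike scaling the log2 differences of scpl33, scpl47, scpl21, SCPL43 and scpl44 changed sign, to between -0.47 and -0.039, and that of scpl40 was 0.17. With 75th percentile scaling 4 of the 6 (scpl40, scpl47, scpl21 and SCPL43) were called higher, which brought the count of higher members from 2 to 6 of 20, while the share over the array went from 22.1% to 30.1%. Without the variance trend scpl47, scpl21 and SCPL43 were called, and the count was 5 of 20, against 22.7% over the array.

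**Figure D3:**
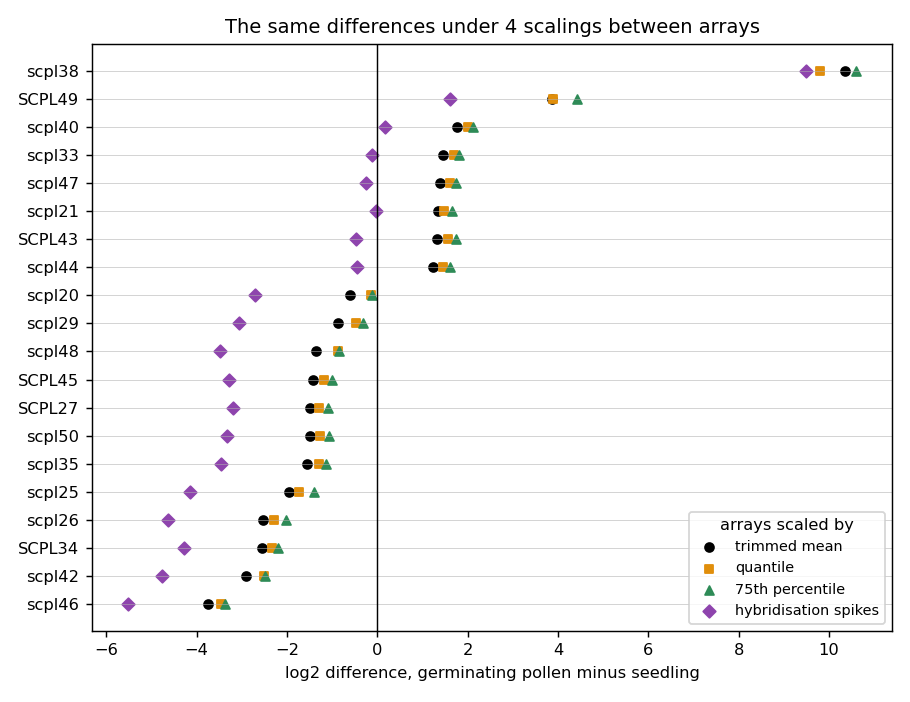
Log2 difference, germinating pollen minus seedling, of the 20 tested members under 4 ways of scaling the arrays to each other. Spike scaling (diamonds) moves every member to the left, the 5 genes scpl33, scpl47, scpl21, SCPL43 and scpl44 past 0, while scpl38 (9.48) and SCPL49 (1.61) stay to the right of it.

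The remaining 9 members were not tested, as neither the seedling signal nor both pollen signals were above the floor. In 4 of them 1 pollen array alone was above the floor. For scpl28 (AT2G35770) the pollen signals were 5.57 and 119 with 29.0 in seedlings, and for scpl22 (AT2G24000) they were 14.6 and 93.1 with 15.8. For scpl31 (AT1G11080) they were 51.8 and 3.55 with 9.56, and for scpl16 (AT3G12220) 61.1 and 6.00 with 0.79. The pollen arrays thus disagreed on whether these genes were above the floor, with the brighter array at 2.80, 2.20, 1.22 and 1.44 times the floor, and which array was the brighter one changed from gene to gene. The other 5, scpl18 (AT1G33540), scpl23 (AT2G24010), scpl30 (AT4G15100), SCPL32 (AT1G61130) and scpl41 (AT5G42230), were at or under the floor on all arrays. Their signals ran from 4.32 (SCPL32) to 27.9 (scpl18) in pollen and from 0.83 (scpl41) to 16.0 (scpl30) in seedlings.

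The pollen arrays differed by more than 2-fold for 10 of the 29 members (34.5%), against 37.1% of all 22746 probe sets. Among the members called, SCPL34 and scpl46 belonged to these 10, with both of their pollen signals far under the floor. The other 8 called members repeated within 1.33-fold.

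**Figure D4:**
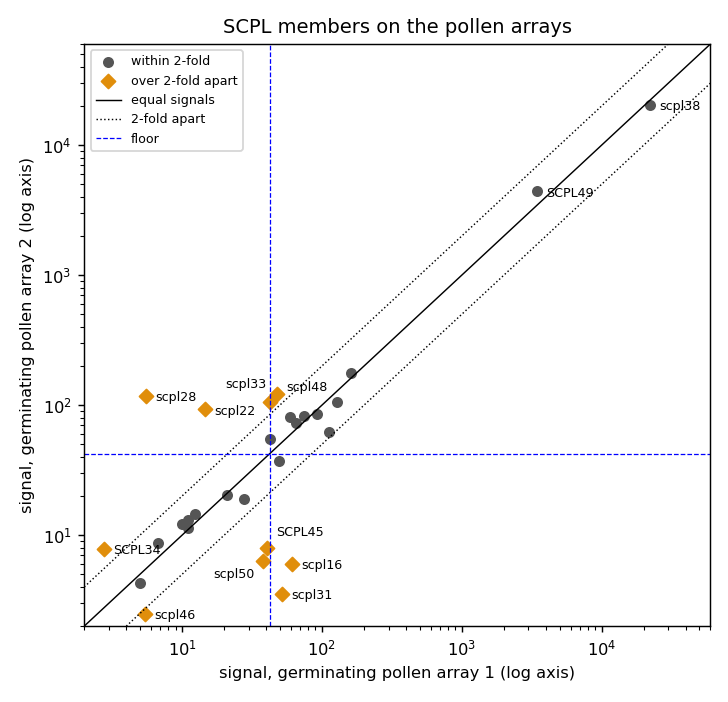
Signal on pollen array 2 against pollen array 1 for the 29 members, both on log axes, with the line of equal signals, 2-fold lines (dotted) and the floor of 42.3 (dashed). The 10 members over 2-fold apart (diamonds) lie at signals of at most 121, and scpl38 and SCPL49 lie close to the line of equal signals.

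Within the family, the numbers 1 to 19 include both named acyltransferases, SNG1 and SNG2, and 19 genes in the reference table have such a number. Of these only scpl16 and scpl18 were members, and 0 were tested. The 20 tested members all have numbers of 20 and above, of which 27 were members out of 32 genes. The results therefore describe the part of the family with the higher numbers.

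Several family members lie next to each other in the reference gene order (TAIR10.1). Neighbours scpl28 and scpl26 have no other protein-coding gene between them, and only scpl26 was called lower. In the pair scpl41 and scpl42, with 2 protein-coding genes between them, scpl42 was lower and scpl41 stayed under the floor on all arrays. The neighbours scpl22 and scpl23 were both not tested. The gene scpl38 has no family member within 5 protein-coding genes, and for SCPL49 the nearest is SCPL7, with 4 genes between, which was not analysed here. Whether the neighbours' differences differ from each other was not tested.

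Few genes of the pathways in which named members act had a probe set of their own. The sinapate pathway feeds the acyltransferases through glucose esters of hydroxycinnamic acids. Of 7 measured genes of the sinapate and phenylpropanoid list, 5 were tested, 2 were lower in pollen and 0 were higher by limma (1 at an unadjusted p under 0.05). Over the whole array 31.7% of tested probe sets were called lower and 22.1% higher. HCT, a hydroxycinnamoyltransferase on the way to lignin and sinapate, had 132 and 201 in pollen against 1358 in seedlings, 8.16-fold lower (log2 difference -2.95, limma adjusted p = 0.0028). ALDH2C4, the aldehyde dehydrogenase that makes ferulic and sinapic acid, had 38.6 and 99.5 against 574, 8.31-fold lower (log2 difference -2.92, limma adjusted p = 0.015). Both genes were lower on both pollen arrays, and pollen array 1 was under the floor for ALDH2C4. UGT84A3 and UGT84A4, glucosyltransferases of hydroxycinnamic acids, did not pass (2.52 and 44.4 against 47.3, and 97.8 and 116 against 31.7).

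In the flavonoid and anthocyanin list all 4 measured genes were tested, 3 were lower and 0 were higher by limma (0 at an unadjusted p under 0.05). The shares over the array, 31.7% lower and 22.1% higher, apply here too. UF3GT, an anthocyanin glycosyltransferase, had 24.9 and 10.6 in pollen against 261 in seedlings, at least 6.17-fold lower. UGT78D1, a flavonol rhamnosyltransferase, had 24.8 and 33.3 against 321, at least 7.60-fold lower. DFR, dihydroflavonol reductase, had 56.3 and 93.6 against 412, 5.50-fold lower. The 3 limma adjusted p-values were 0.014, 0.010 and 0.012. UGT78D2 did not pass (4.64 and 75.5 against 370).

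Of the brassinosteroid genes, to which BRS1 relates, 2 were measured and 1 was tested. BIM1, a transcription factor of brassinosteroid responses, gave 38.3 and 47.2 in pollen and 136 in seedlings, without passing (limma adjusted p = 0.079). BRL1, a relative of the receptor BRI1, had 29.3 and 47.9 against 4.31 and was not tested. In the list of phenolamide genes, whose products are made for the pollen coat in the tapetum or in seeds, SHT and SDT were measured and did not reach the floor on any array, with signals of at most 26.9.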

How the data were processed

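The deposited table held 1 array intensity on a linear scale per probe set and array, computed by the authors with the program MAS5, per the submitters' processing notes, with no version stated in them; the series' design text names GCOS 1.2 and Excel 2004. The 3 arrays had 10 µg of total RNA each and the same 2% trimmed mean of 122, so they had been scaled before deposit, and differences are relative to the rest of an array. Detection calls and scanner files were not used here. The sample label gives the seedlings 18 h of light, the design text 16 h, which was not settled.

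Equal trimmed means were set again, an offset of 14.7 (30th percentile) was added, and log2 values of all 14815 probe sets above the floor were fitted with limma 3.58.1 (lmFit, eBayes with trend, two-sided, 1 residual degree of freedom) in R 4.3.3. The offset understates log2 differences of dim probe sets, and folds are ratios of mean signals. Where no array of a tissue exceeded the floor, the fold is a lower bound, the other tissue's mean divided by the floor. Tested on simulated data, the fit recovered planted differences but called more unchanged probe sets than the threshold of 0.05 allows.

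The annotation gave exactly 1 gene for 13513 of 22746 probe sets, several for 503, and did not list 8730. All 29 members matched the reference table, TAIR10.1, used for names and gene order only, since the sources name no genome build. Members and lists were chosen with earlier results of these data known. Values are given for each member above the floor on any array or called, and the others by range; of the lists, up to 3 called genes in each direction are named, with others as examples. The symbol CHI was dropped from the flavonoid list because the annotation gives it to a chitinase. No sequences are shown.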

Additional observations from a re-analysis of the deposited data

Results flagged for a closer look

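A pair of probe sets that the annotation gives to several genes each, and which therefore entered no result on the members, was bright in pollen and far above the controls without a target (at most 65.7 there). The brighter one, whose 2 genes both belong to the family, had 23420 and 21921 on the pollen arrays, a mean of 22670, and 0.45 in seedlings, at least 536-fold higher against the floor. The dimmer one, with 2 genes of which 1 belongs to the family, had 489 and 237, a mean of 363, and 0.62 in seedlings, at least 8.57-fold higher. The family genes on this pair are scpl36, scpl37 and scpl39, which lie in a row without another protein-coding gene between them. Which of the genes gave these signals was not tested.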

How the results depend on the processing

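The floor at the brightest control without a target was chosen after seeing the data, and the other alternatives are part of the plan made with earlier results known. Against 2 members higher and 8 lower of 20 tested, spike scaling gave 13 lower members of 22 tested. Over the whole array 66.6% of 17801 tested probe sets were then lower and 7.99% higher (11862 and 1423 calls). In the main fit these were 31.7% and 22.1% of 14815 (4692 and 3280 calls). By size alone, spike scaling gave 1 member at least 10-fold higher (scpl38) and 4 at least 10-fold lower (scpl25, scpl26, scpl42 and scpl46). No share over the array is given for these counts by size, so they are not a result about the family in particular. Under spike scaling the log2 differences of scpl33, scpl47, SCPL43 and scpl44, tested and not called, turned to -0.11, -0.25, -0.47 and -0.46. That of scpl21, which was not tested there, turned to -0.039. With 75th percentile scaling 6 of 20 members were higher (30.1% of the array), without variance trend 5 of 20 (22.7%), and with no filter on low signals 5 of 29 were lower (13.9%). Of all calls made over the array in either direction, 41.1% were higher calls. That part was 48.2%, 53.1% and 10.7% under quantile, 75th percentile and spike scaling. The median log2 difference of the tested members, -1.11, became -0.67 with quantile normalisation, -0.59 with the 75th percentile, -3.14 with spikes, -1.23 with an offset of 1 and -0.84 with an offset at the pooled median, and ran from -0.81 to -0.80 with 1 pollen array left out; with no filter it was 0.25 over all 29. Over what each setting tested, the medians of members and of all probe sets, -1.11 and -0.61, were -0.67 and -0.26 (quantile), -0.59 and 0.02 (75th percentile), -2.89 and -2.27 (spikes) and 0.25 and 0.07 (no filter). The cause was not tested. The floor raised on the pollen arrays alone kept the 2 higher and 8 lower calls. It left scpl40, scpl33 and scpl21 untested, and 17 members were tested. This setting could not take a called member out of the test. The lower ones entered by their seedling signal, and scpl38 and SCPL49 lay far above the raised floor in pollen. Over the array 21.8% of 14085 tested probe sets were then higher and 33.0% lower. With 1 pollen array left out no residual degrees of freedom remain, so calls were not made. No paired analysis was possible because a single seedling array stands against 2 pollen arrays. Using every probe set of the members changed nothing, as each has 1. The few arrays limit precision, as does, for dim members, the controls' signal.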
